A study of Caenorhabditis elegans with 9 samples.

Results

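Transcript levels are described for 10 *C. elegans* genes that carry carbon from pyruvate into the tricarboxylic acid (TCA) cycle, around it, and out of or into it at glutamate through the transcriptomes of 3 genotypes. The genes are *mpc-1*, *mpc-2*, *pdha-1*, *pdhb-1*, *pyc-1*, *cts-1*, *aco-2*, *ogdh-1*, *mdh-2* and *gdh-1*, matched by gene identifier, 10 of the 46875 genes listed. *mpc-1* and *gdh-1* were chosen by their fold changes in these same libraries, where both lay below wild-type in *sma-3* mutants and above it in libraries labelled *sma-9*, so their values are described without a test. The other 8 were picked for their place in the pathway next to those genes, and the question was whether they shared the opposite changes.

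Pyruvate made by glycolysis enters mitochondria through the mitochondrial pyruvate carrier, which in yeast and mammals is built from MPC1 and MPC2 proteins. Inside, the pyruvate dehydrogenase complex converts it to acetyl-CoA, while pyruvate carboxylase converts it to oxaloacetate. Citrate synthase joins these products, and the cycle then passes through citrate, isocitrate, alpha-ketoglutarate, succinyl-CoA and malate. Glutamate dehydrogenase connects the cycle to amino acids by interconverting glutamate and alpha-ketoglutarate.

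RNA was taken from whole, synchronized worms at the late L2 larval stage, grown at 20 °C under 21% oxygen. The genotypes were *sma-3(wk30)*, mutant for a Smad transcription factor of the BMP-type DBL-1 pathway, *sma-9(ok1628)*, mutant for the Schnurri transcription factor of that pathway, and wild-type (N2), with 3 biological replicates each. No other allele or treatment is given, and each mutant genotype is represented by a single allele. The replicates are described as biological, but how the cultures were kept apart is not, so the p-values measure the spread between these samples. For each gene this spread was 1 estimate shared by the 3 genotypes, so each comparison also draws on the genotype outside it. PolyA RNA was sequenced, and values are CPM, the reads of a gene relative to all reads on genes, which the authors normalized between libraries. Fold changes are on the log2(CPM + 1) scale, and a gene was called when the adjusted p of limma, over 13105 tested genes, was at most 0.05.

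Libraries held 58889275 to 82735807 reads on genes, and 3 reads correspond to 0.035 to 0.0503 CPM. The 10 genes had from 2834 reads (*mpc-2*) to 227182 reads (*gdh-1*) in a library, far from that limit. The *sma-3* transcript was at 12.6, 13.3 and 14.2 CPM in *sma-3* libraries, against 26.5, 21.4 and 22.4 CPM in wild-type (log2 fold change −0.76, SE 0.091, adjusted p = 0.00101). The *sma-9* transcript was higher, not lower, in the libraries labelled *sma-9*, at 173, 213 and 219 CPM, against 87.6, 89.4 and 119 CPM in wild-type (log2 fold change 1.03, SE 0.132, adjusted p = 0.00202). The deleted part was not examined separately, and these libraries are therefore called labelled *sma-9* throughout. Over all tested genes, wild-type replicate 3 was closer to labelled *sma-9* replicate 2 (distance 44 in log2 units) than to any other wild-type library (46.3), and for the other 8 libraries the nearest was of the same genotype. Library numbers in the labels place wild-type replicates 1 and 2 and labelled *sma-9* replicate 1 below 8 and the rest higher, with all *sma-3* libraries at 14 to 16, so library number and the *sma-3* genotype cannot be told apart.

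Pyruvate import was represented by *mpc-1* (WBGene00011119) and *mpc-2* (WBGene00018765), both protein-coding, whose values were summed over exons. On WBcel235 *mpc-1* lies on the plus strand of chromosome III, 4413457 to 4414748, and *mpc-2* on the plus strand of chromosome I, 3827219 to 3828126. *mpc-1* had 56.2, 59.3 and 59.8 CPM in *sma-3* libraries, 117, 92.2 and 102 CPM in labelled *sma-9* libraries and 95.2, 94.2 and 78.9 CPM in wild-type. Every *sma-3* value lay below every wild-type value, whereas labelled *sma-9* and wild-type overlapped, labelled *sma-9* replicate 2 lying below wild-type replicates 1 and 2. The log2 fold change was −0.60 (SE 0.103) for *sma-3* and 0.21 (SE 0.103) for labelled *sma-9*, both against wild-type. Over the alternatives the values were −0.69 to −0.51 and 0.12 to 0.33. The alternatives reuse the libraries whose signs chose *mpc-1*, so these ranges are a description only.

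The estimate of *mpc-2*, the partner subunit, had the sign of *mpc-1* in *sma-3* and the opposite sign in labelled *sma-9*. A difference between these genes was not tested. *mpc-2* had 46.4, 47.5 and 48.9 CPM in *sma-3* libraries, 56.1, 45.0 and 40.5 CPM in labelled *sma-9* libraries and 65.9, 52.7 and 48.6 CPM in wild-type. The mutant and wild-type ranges overlapped in both comparisons, with wild-type replicate 3 below the highest *sma-3* value and labelled *sma-9* replicate 1 above wild-type replicates 2 and 3. The log2 fold change was −0.21 in *sma-3* (95% interval −0.52 to 0.09, adjusted p = 0.3) and −0.24 in labelled *sma-9* (−0.54 to 0.07, adjusted p = 0.348), so neither was called and both estimates lay on the same side of 0. Both intervals reach further down than the called decrease of *pdha-1* in *sma-3*.

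The ratio of *mpc-1* to *mpc-2* within each library, formed after the values were seen, shows the difference between the subunits without the scaling between libraries. It was 1.21, 1.25 and 1.22 in *sma-3*, 2.09, 2.05 and 2.53 in labelled *sma-9* and 1.44, 1.79 and 1.62 in wild-type. The genotypes did not overlap, with *sma-3* lowest and labelled *sma-9* highest. The ratio contains *mpc-1*, which was chosen for this order, and is a description only.

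**Figure D1:**
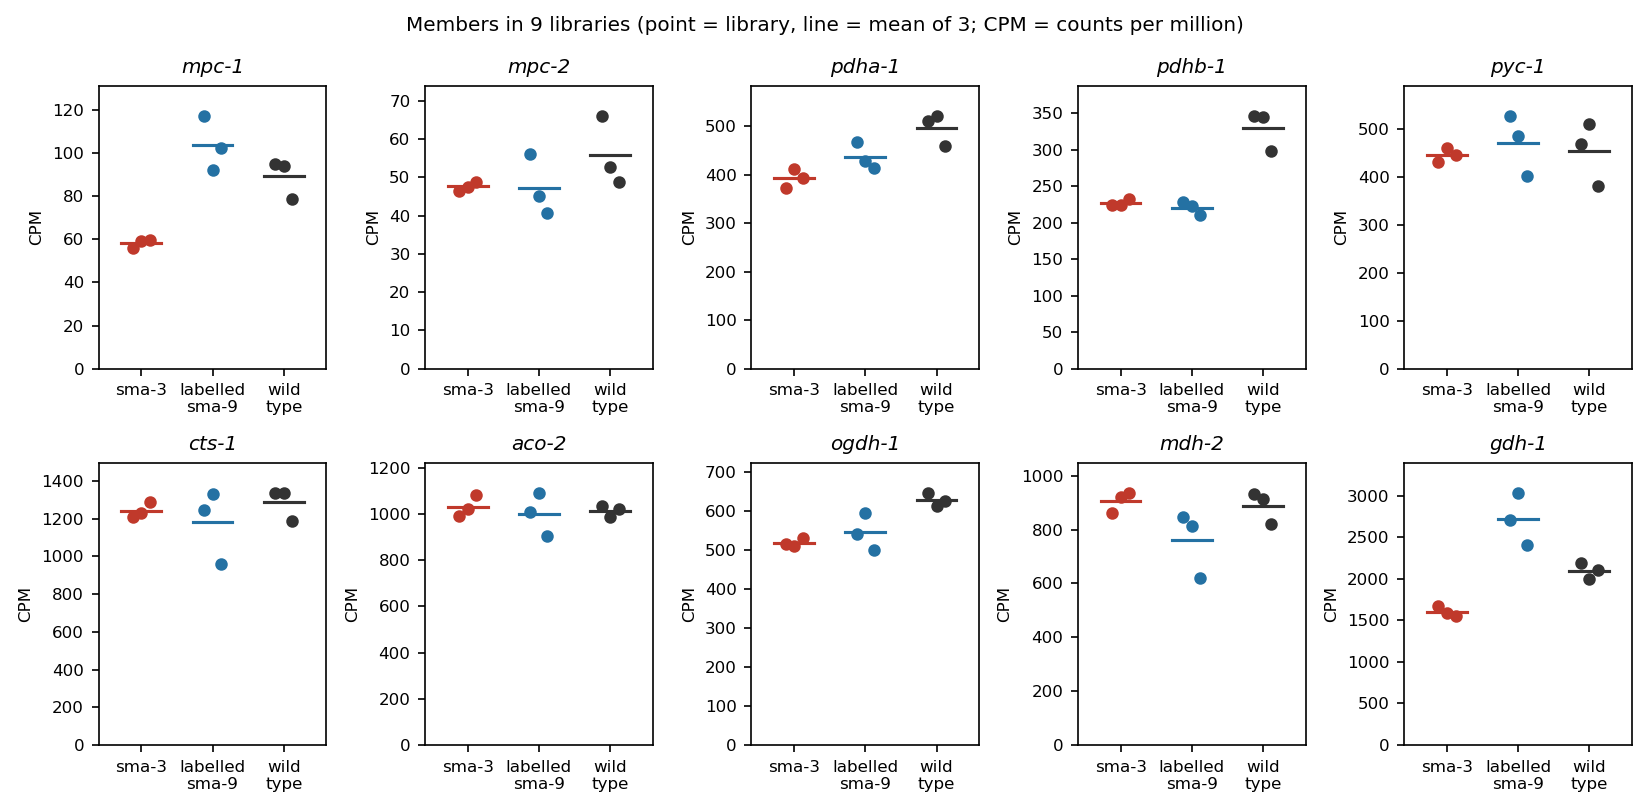
CPM of each of the 10 genes (y axis, from 0) in the 9 libraries, grouped as *sma-3*, labelled *sma-9* and wild-type; points are libraries and lines are means of 3. *mpc-1* and *gdh-1* are lowest in *sma-3*, *pdhb-1* is low in both mutants (210.5 to 232 CPM, against 298 to 346 CPM in wild-type), and the genotypes overlap for *aco-2*.

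Of the 8 genes picked for their place in the pathway, 1 was called lower in both mutants, *pdhb-1* of the pyruvate dehydrogenase complex. *pdhb-1* (WBGene00015413, chromosome IV, 3399672 to 3403908, plus strand) encodes the beta subunit of the pyruvate dehydrogenase enzyme at the head of the complex. It had 225, 224 and 232 CPM in *sma-3* libraries, 229, 222 and 210.5 CPM in labelled *sma-9* libraries and 346, 345 and 298 CPM in wild-type. All 6 mutant values lay below all 3 wild-type values, and the mutants overlapped each other. *pdhb-1* fell in *sma-3* (log2 fold change −0.53, 95% interval −0.71 to −0.36, adjusted p = 0.00213) and in labelled *sma-9* (−0.58, −0.75 to −0.40, adjusted p = 0.00251). Between *sma-3* and labelled *sma-9* the log2 difference was 0.04 (−0.13 to 0.22, adjusted p = 0.748). Both decreases were called in every alternative run, with adjusted p from 0.000934 to 0.0157 in *sma-3* and from 0.000697 to 0.0244 in labelled *sma-9*. The direction therefore matched *mpc-1* and *gdh-1* in *sma-3* and ran against them in labelled *sma-9*.

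*pdha-1* (WBGene00011510, chromosome II, 8066285 to 8068184, plus strand) encodes the alpha subunit of the same enzyme. It had 373, 411 and 393 CPM in *sma-3* libraries, 467, 428 and 414 CPM in labelled *sma-9* libraries and 509.9, 521 and 460.1 CPM in wild-type. The *sma-3* values were below all others, while labelled *sma-9* replicate 1 lay within the wild-type range. *pdha-1* fell in *sma-3* (log2 fold change −0.34, SE 0.0819, adjusted p = 0.0188) and was not called in labelled *sma-9* (−0.19, 95% interval −0.37 to −0.002, adjusted p = 0.22). The *sma-3* call was lost without *sma-3* replicate 1 (adjusted p = 0.0745) or 3 (0.0691), without wild-type replicate 1 (0.0573) or 2 (0.0637), and with quantile normalization (0.0828). *pdha-1* shares its 3′ end with *gpcp-2* on the other strand, which averaged 116.7 CPM, and since the strand setting of the counting is not given, reads in that overlap are uncertain. *mpc-1*, *cts-1* and *aco-2* also overlap genes on the other strand, which averaged at most 18.5 CPM.

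The products of *pdha-1* and *pdhb-1* act as a pair, and their transcripts were compared within libraries, a ratio also chosen after the values were seen. *pdhb-1* stood to *pdha-1* as 0.601, 0.546 and 0.591 in *sma-3*, as 0.490, 0.518 and 0.508 in labelled *sma-9* and as 0.678, 0.663 and 0.648 in wild-type. Every mutant library was below every wild-type library, and labelled *sma-9* was below *sma-3*. The exact two-sided permutation test gave p = 0.1 for each of the 3 pairs of genotypes, the smallest value that 3 against 3 libraries allow. Groups without overlap always give that value, so the test adds nothing to the order, and the ratio is a description only. Among other parts of the complex, the acetyltransferase gene *dlat-1* fell in both mutants, with 383, 391 and 391 CPM in *sma-3*, 404, 399 and 335 CPM in labelled *sma-9* and 481, 496 and 488 CPM in wild-type. The fold change of *dlat-1* was −0.33 in *sma-3* (adjusted p = 0.0221) and −0.37 in labelled *sma-9* (adjusted p = 0.028) on the log2 scale. *dld-1*, the dihydrolipoamide dehydrogenase that this complex shares with the alpha-ketoglutarate dehydrogenase complex, fell in labelled *sma-9* (−0.35, adjusted p = 0.0329) and was at −0.23 in *sma-3* (adjusted p = 0.0718). *dlat-2*, also among the listed pathway genes, was not called in *sma-3* (−0.12, adjusted p = 0.243) or labelled *sma-9* (−0.15, adjusted p = 0.215).

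*pyc-1* (WBGene00004258, chromosome V, 11817783 to 11822529, minus strand), the pyruvate carboxylase gene, showed no called difference. It had 432, 461 and 447 CPM in *sma-3* libraries, 526, 486 and 401 CPM in labelled *sma-9* libraries and 469, 509 and 382 CPM in wild-type. The genotypes overlapped throughout, with a wide spread in labelled *sma-9* and in wild-type. The log2 fold change was −0.01 in *sma-3* (95% interval −0.30 to 0.28, adjusted p = 0.958) and 0.06 in labelled *sma-9* (−0.23 to 0.34, adjusted p = 0.838). Among the 8, *pyc-1* alone had the signs of *mpc-1* and *gdh-1*, and with libraries rescaled to equal totals its value in *sma-3* turned positive (0.08).

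No difference was called for the enzymes at the entry of the cycle in either mutant. *cts-1* (WBGene00000833, chromosome III, 10214771 to 10216635, minus strand), which encodes citrate synthase, had 1209, 1231 and 1289 CPM in *sma-3* libraries, 1246, 1332 and 962 CPM in labelled *sma-9* libraries and 1335, 1338 and 1189 CPM in wild-type. Labelled *sma-9* replicate 3 was the lowest of the 9, and the genotypes overlapped. The log2 fold change of *cts-1* was −0.05 in *sma-3* (95% interval −0.33 to 0.23, adjusted p = 0.818) and −0.14 in labelled *sma-9* (−0.42 to 0.15, adjusted p = 0.578), and without labelled *sma-9* replicate 3 the estimate for labelled *sma-9* was 0.0032. *aco-2* (WBGene00000041, chromosome III, 7973717 to 7977355, plus strand), the mitochondrial aconitase gene, had 989, 1019.9 and 1082 CPM in *sma-3* libraries, 1009, 1092 and 903 CPM in labelled *sma-9* libraries and 1035, 986 and 1022 CPM in wild-type. Its values overlapped in all pairs of genotypes. The fold change of *aco-2* was 0.02 in *sma-3* (−0.18 to 0.23, adjusted p = 0.889) and −0.02 in labelled *sma-9* (−0.23 to 0.18, adjusted p = 0.917) on the log2 scale.

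*ogdh-1* (WBGene00020679, chromosome IV, 4696979 to 4704011, minus strand) encodes the subunit of the alpha-ketoglutarate dehydrogenase complex that uses the product of glutamate dehydrogenase as substrate. It had 516, 512 and 531 CPM in *sma-3* libraries, 539.9, 594 and 501 CPM in labelled *sma-9* libraries and 647, 612 and 625 CPM in wild-type. All mutant values lay below all wild-type values. *ogdh-1* fell in *sma-3* (log2 fold change −0.27, SE 0.0801, adjusted p = 0.0384) and was not called in labelled *sma-9* (−0.21, 95% interval −0.39 to −0.03, adjusted p = 0.169). The *sma-3* call was close to the threshold and was lost without *sma-3* replicate 1 (adjusted p = 0.112), 2 (0.133) or 3 (0.0995), without wild-type replicate 1 (0.107) or 2 (0.0748), and under other settings, up to 0.274 with quantile normalization.

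*mdh-2* (WBGene00003162, chromosome III, 6606544 to 6608106, minus strand) encodes the mitochondrial malate dehydrogenase, which returns malate to oxaloacetate. It had 862, 920.4 and 936 CPM in *sma-3* libraries, 845, 813 and 620.5 CPM in labelled *sma-9* libraries and 931, 912 and 821 CPM in wild-type. The *sma-3* values lay above those of labelled *sma-9*, and each mutant overlapped wild-type. The log2 fold change was 0.03 in *sma-3* (95% interval −0.24 to 0.30, adjusted p = 0.888) and −0.24 in labelled *sma-9* (−0.51 to 0.04, adjusted p = 0.298), and the log2 difference of *sma-3* from labelled *sma-9* was 0.27 (−0.01 to 0.54, adjusted p = 0.166).

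Glutamate dehydrogenase, encoded by *gdh-1* (WBGene00014095, chromosome IV, 11953249 to 11955541, plus strand), held the widest differences between the mutants beside *mpc-1*. It had 1672, 1591 and 1549 CPM in *sma-3* libraries, 2709, 3037 and 2411 CPM in labelled *sma-9* libraries and 2197, 1998 and 2102 CPM in wild-type. The 3 genotypes did not overlap, with *sma-3* lowest, wild-type between and labelled *sma-9* highest. The log2 fold change was −0.39 (SE 0.11) in *sma-3* and 0.37 (SE 0.11) in labelled *sma-9*. Over the alternatives the values were −0.42 to −0.29 and 0.28 to 0.49. The alternatives reuse the libraries whose signs chose *gdh-1*, so these ranges are a description only. *gdh-1* transcripts made up 26.2%, 24.6% and 23.6% of the summed CPM of the 10 genes in *sma-3*, 35.0%, 37.3% and 36.7% in labelled *sma-9* and 28.8%, 27.1% and 29.9% in wild-type.

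*gdh-1* was also set against *ogdh-1*, whose enzyme acts on the same metabolite. The ratio contains *gdh-1*, which was chosen for its order among the genotypes, and is a description only. The ratio of *gdh-1* to *ogdh-1*, formed after the values were seen, was 3.24, 3.11 and 2.92 in *sma-3*, 5.02, 5.11 and 4.81 in labelled *sma-9* and 3.40, 3.27 and 3.36 in wild-type. Labelled *sma-9* stood above all other libraries, and the *sma-3* values lay below those of wild-type by less (mean 3.09 ± 0.163, against 3.34 ± 0.0688 in wild-type, SD, n = 3 each). In *sma-3*, *gdh-1* and *ogdh-1* were thus both lower, and in labelled *sma-9* they lay on opposite sides of wild-type.

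**Figure D2:**
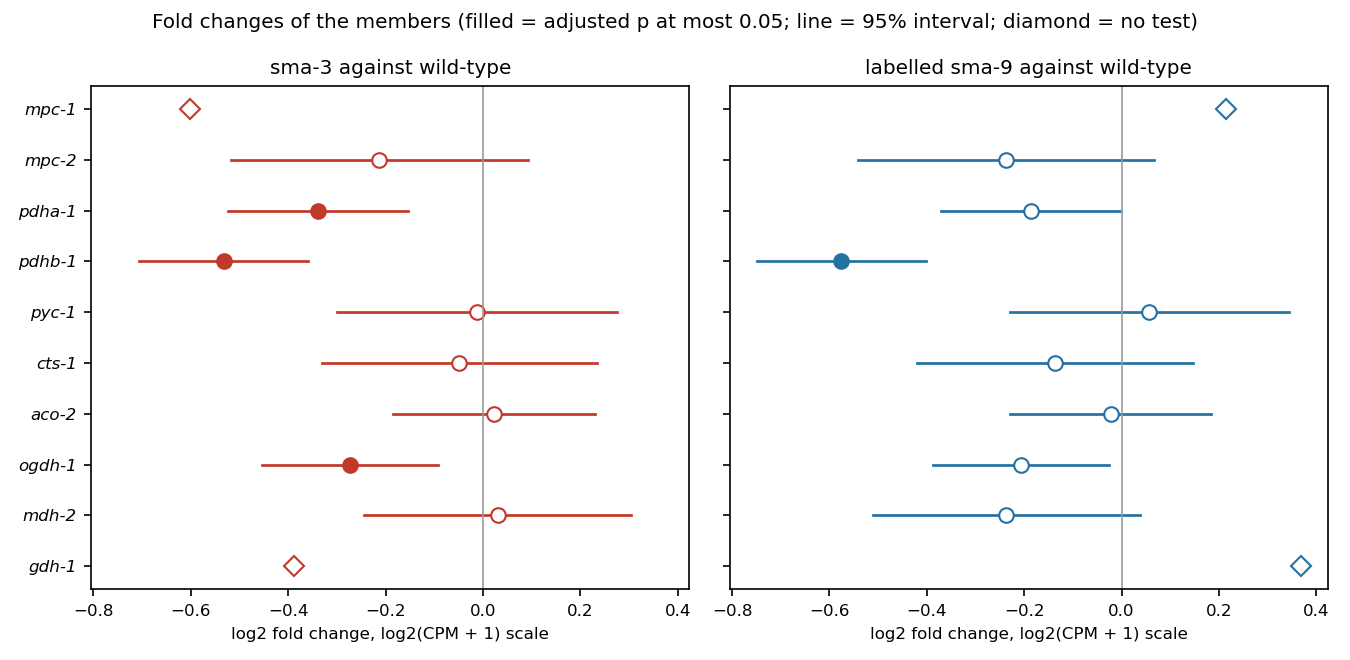
Log2 fold changes of the 10 genes, in pathway order from top to bottom, for *sma-3* against wild-type (left) and labelled *sma-9* against wild-type (right); circles have 95% intervals and are filled where called, and diamonds mark *mpc-1* and *gdh-1*, which have no test. *pdhb-1* is at −0.53 in *sma-3* and −0.58 in labelled *sma-9*, while *gdh-1* is at −0.39 in *sma-3* and 0.37 in labelled *sma-9*.

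Counted together, 3 of the 8 neighbours fell in *sma-3* against wild-type (*pdha-1*, *pdhb-1* and *ogdh-1*), where 21.5% of all tested genes were called, 12.2% lower and 9.36% higher. Their values lay below 0 in 6 of 8, with a median log2 fold change of −0.13, against −0.01 over all tested genes. With equal totals 4 of 8 lay below 0 (median −0.04, against 0.0712 over all tested genes). With quantile normalization 5 of 8 did (median −0.07, against −0.0267). Below the median of all tested genes lay 5 of 8 with the authors' normalization, 5 with equal totals and 4 with quantile normalization. In labelled *sma-9* against wild-type, 1 of the 8 fell (*pdhb-1*), where 6.88% of all tested genes were called, 3.85% lower and 3.02% higher. Here 7 of 8 lay below 0 with a median of −0.20, against 0.0045 over all genes. With equal totals 6 of 8 lay below 0 (median −0.08, against 0.11 over all genes). With quantile normalization only 2 of 8 lay below 0 and the median was 0.01, against 0.0044. In *sma-3* against labelled *sma-9*, limma called 0 of the 8, where 17.7% of all tested genes were called, 9.10% lower and 8.56% higher, with 0 at an unadjusted p of at most 0.05 and 0 by voom on the recovered reads.

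The opposite pattern, below 0 in *sma-3* and above 0 in labelled *sma-9*, was found for 1 of the 8 neighbours (*pyc-1*, within its error), and for 18.4% of all tested genes. Of the 8, 5 lay below 0 in both comparisons, as did 33.6% of all tested genes. The same wild-type libraries serve in both. The summed CPM of the 8 was 4652, 4827 and 4959 in *sma-3*, 4918, 5012 and 4054 in labelled *sma-9* and 5339, 5275 and 4845 in wild-type. Labelled *sma-9* replicate 3 was the lowest of these sums and held the lowest value for 6 of the 8 genes. Within the library-number classes, each with 1 or 2 libraries a genotype and no test, labelled *sma-9* differed from wild-type by 0.31 below 8 and 0.30 from 8 up for *mpc-1*, by 0.37 and 0.36 for *gdh-1*, by −0.59 and −0.46 for *pdhb-1* and by −0.22 and −0.20 for *ogdh-1*, all on the log2 scale. The same differences were −0.07 and −0.18 for *mpc-2*, 0.11 and 0.21 for *pyc-1*, −0.13 and −0.21 for *mdh-2*, −0.14 and −0.13 for *pdha-1*, −0.10 and −0.07 for *cts-1* and −0.001 and −0.04 for *aco-2*. Those of *mpc-1* and *gdh-1* reuse the libraries whose signs chose these genes and are a description only.

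**Figure D3:**
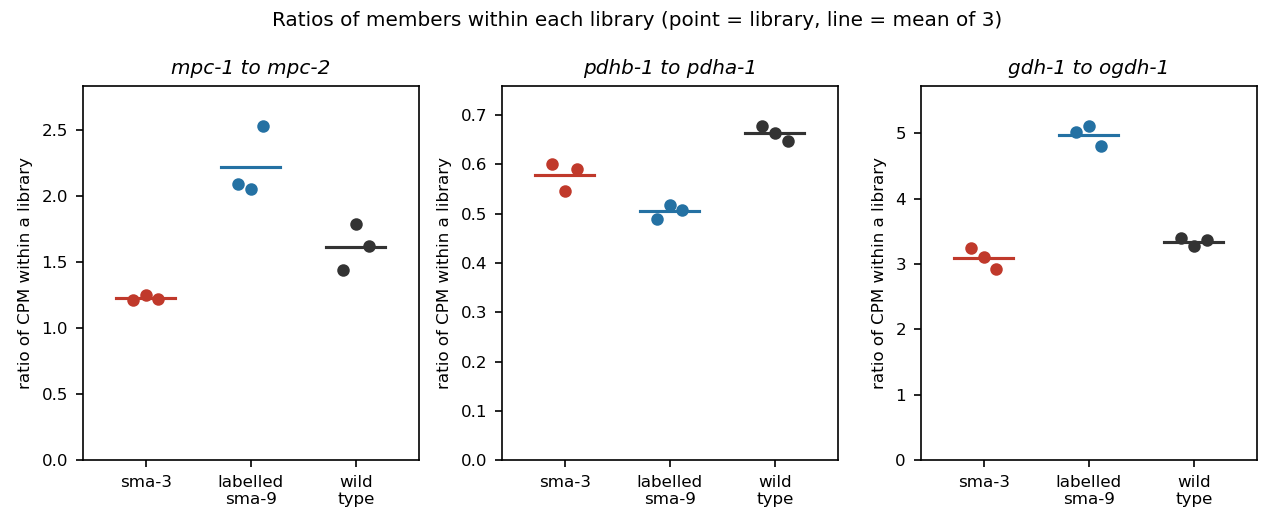
Ratios of CPM within each library (y axes, from 0) for *mpc-1* to *mpc-2*, *pdhb-1* to *pdha-1* and *gdh-1* to *ogdh-1*, in *sma-3*, labelled *sma-9* and wild-type; points are libraries and lines are means of 3. The *gdh-1* to *ogdh-1* ratio averages 4.98 in labelled *sma-9*, against 3.34 in wild-type, and the *pdhb-1* to *pdha-1* ratio is below wild-type in both mutants.

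Levels of different genes were compared as CPM per kilobase of exon. In wild-type *gdh-1* was highest (1081 ± 51.4, SD, n = 3), followed by *cts-1* (753 ± 49.9) and *mdh-2* (678 ± 44.8), whose ranges overlapped. Next came *aco-2* (349.5 ± 8.82), *pdha-1* (303 ± 19.7) and *pdhb-1* (254 ± 21), which did not overlap one another. *ogdh-1* (181 ± 5.1) overlapped *mpc-1* (170 ± 17.4), and *pyc-1* (113 ± 16.3) overlapped *mpc-2* (110 ± 17.8) at the low end. In *sma-3* libraries *mpc-1*, at 111 ± 3.72, came down beside *pyc-1* (111.5 ± 3.70). In labelled *sma-9* libraries *mpc-1* (197.7 ± 23.9) stood above and overlapped *pdhb-1* (169.8 ± 7.11), and the other genes kept the wild-type order there, apart from these shifts.

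Of the 51 other genes listed for the pathway, 48 were matched by name and 46 passed the filter on low values. *pck-3* and *gln-2* were matched but too low to test, at most 0.332 and 0.537 CPM in any library, and *dhtk-1*, *got-1.1* and *got-1.3* were not matched. In *sma-3* against wild-type 4 of the 46 fell and 3 rose, and in labelled *sma-9* against wild-type 6 were called, each of them lower, against the shares of all tested genes given above (12.2% and 9.36%, then 3.85% and 3.02%). The opposite pattern occurred in 5 of the 46 (*pck-2*, *idhg-2*, *gln-1*, *gln-5* and *gln-6*), none of them called. Of the 46, 26 lay below 0 in both, against 33.6% of all tested genes. The counts below 0 depended on the scaling. In *sma-3* 31 of the 46 lay below 0, but 24 with equal totals and 22 with quantile normalization. In labelled *sma-9* 32 lay below 0, but 23 with equal totals and 25 with quantile normalization. Equal totals also moved the median of all tested genes, to 0.0712 in *sma-3* and 0.11 in labelled *sma-9*. Below the median of all tested genes lay 29 of the 46 in *sma-3*, 29 with equal totals and 19 with quantile normalization. In labelled *sma-9* these counts were 32, 33 and 26.

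At the pyruvate node, 2 of 11 tested genes fell in *sma-3* and 2 of 11 in labelled *sma-9*, against 12.2% and 3.85% of all tested genes. Beside *dlat-1*, *pck-1* fell in *sma-3*, at 289, 315 and 289 CPM, against 368, 401 and 360.2 CPM in wild-type (log2 fold change −0.34, adjusted p = 0.0363). *pck-1* encodes a phosphoenolpyruvate carboxykinase, which withdraws oxaloacetate from the cycle, and in labelled *sma-9* it was at −0.06 (adjusted p = 0.787). The calls of this list were fragile. Those of *dlat-1* and *pck-1* in *sma-3* were each lost without any single *sma-3* library (adjusted p = 0.0735 to 0.077 for *dlat-1* and 0.0735 to 0.123 for *pck-1*) and without wild-type replicate 2 (0.0635 and 0.112), and that of *pck-1* also without wild-type replicate 1 (0.0726). In labelled *sma-9*, *dlat-1* and *dld-1* lost their calls without labelled *sma-9* replicate 2 (adjusted p = 0.0539 and 0.0648) or 3 (0.0614 and 0.114), and without wild-type replicate 1 (0.0677 and 0.103) or 2 (0.0948 and 0.112). These 2 calls held in 7 of 17 alternative runs each. They were also lost without a filter, with equal totals, quantile normalization, a replicate block or a library-number term, and with only the 2 genotypes compared. In *sma-3* the calls held in 10 of 16 runs for *dlat-1* and 7 of 16 for *pck-1*.

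In the list of other TCA and glyoxylate genes, the calls included 3 subunit genes of succinyl-CoA ligase, which forms succinate downstream of *ogdh-1*. *sucg-1*, a beta subunit gene, fell in both mutants, with 80.3, 89.9 and 91.0 CPM in *sma-3*, 91.8, 90.5 and 98.8 CPM in labelled *sma-9* and 118, 123 and 115 CPM in wild-type. The fold change of *sucg-1* was −0.44 on the log2 scale in *sma-3* (adjusted p = 0.00354) and −0.34 in labelled *sma-9* (adjusted p = 0.0226). *sucl-2*, an alpha subunit gene, had 105, 112 and 115 CPM in *sma-3*, 97.7, 78.8 and 81.0 CPM in labelled *sma-9* and 126, 122 and 119 CPM in wild-type. It fell in labelled *sma-9* (−0.51, adjusted p = 0.00857), was at −0.14 in *sma-3* (adjusted p = 0.289), and was higher in *sma-3* than in labelled *sma-9* (0.37, adjusted p = 0.0202). The decreases of *sucg-1* in *sma-3* and of *sucl-2* in labelled *sma-9* were called in every alternative run. *sucl-1*, a further subunit gene in the list, averaged 301 CPM in *sma-3*, 276 CPM in labelled *sma-9* and 319 CPM in wild-type. It was not called in *sma-3* (−0.09, adjusted p = 0.493) or labelled *sma-9* (−0.21, adjusted p = 0.165).

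Other calls in this list were the isocitrate dehydrogenase gene *idh-2*, which fell in *sma-3* (log2 fold change −0.34, adjusted p = 0.015), and *suca-1*, another beta subunit gene of succinyl-CoA ligase, which fell in labelled *sma-9* (−0.31, adjusted p = 0.0337). *dlst-1*, the succinyltransferase of the alpha-ketoglutarate dehydrogenase complex, fell in labelled *sma-9* at the edge of the threshold (−0.32, adjusted p = 0.0496). *idhb-1*, a subunit gene of the NAD-dependent isocitrate dehydrogenase, was higher in *sma-3* than in labelled *sma-9* (0.33, adjusted p = 0.0169). In all, 2 of 21 fell in *sma-3*, against 12.2% of all tested genes, and 4 of 21 in labelled *sma-9*, against 3.85%. Values below 0 numbered 16 of 21 in *sma-3* and 18 of 21 in labelled *sma-9*. With libraries rescaled to equal totals 11 of 21 lay below 0 in *sma-3* and 15 of 21 in labelled *sma-9*. With quantile normalization 8 of 21 did in *sma-3* (median 0.04) and 15 of 21 in labelled *sma-9*, so the counts below 0 depended on the scaling. Below the median of all tested genes lay 14 of 21 in *sma-3* and 18 of 21 in labelled *sma-9*, and the same numbers with equal totals. With quantile normalization these were 8 and 15 of 21. The *dlst-1* call was lost without any single labelled *sma-9* or wild-type library other than wild-type replicate 3 (adjusted p = 0.0614 to 0.149), *suca-1* without labelled *sma-9* replicate 1 (0.0658) or 3 (0.113) or wild-type replicate 1 (0.0816) or 2 (0.0948), and *sucg-1* in labelled *sma-9* without labelled *sma-9* replicate 2 (0.0881) or wild-type replicate 1 (0.0615) or 2 (0.0872). *idh-2* was lost without *sma-3* replicate 1 (0.0544) or 3 (0.0675). Counting every alternative run, the labelled *sma-9* calls held in 4 of 17 for *dlst-1*, 7 of 17 for *suca-1* and 10 of 17 for *sucg-1*. Equal totals, quantile normalization, a replicate block and comparing only the 2 genotypes each lost all 3 of these calls. Between the mutants, *idhb-1* was lost without *sma-3* replicate 2 (0.0753) or 3 (0.0785) or labelled *sma-9* replicate 3 (0.0533), and *sucl-2* without *sma-3* replicate 2 (0.0802) or 3 (0.086) or labelled *sma-9* replicate 2 or 3 (0.0705 each). *icl-1*, the isocitrate lyase and malate synthase of the glyoxylate shunt, was at 367 to 980.3 CPM among wild-type libraries, and its estimate of 0.60 for *sma-3* on the log2 scale was not called (adjusted p = 0.189).

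Around glutamate, 3 of 14 tested genes rose in *sma-3*, where 9.36% of all tested genes rose. Of the 14, 5 lay below 0, the lowest at −0.32, and the median was 0.04. The glutaminase gene *glna-2*, whose product makes glutamate from glutamine, had 21.0, 24.3 and 27.1 CPM in *sma-3*, 15.3, 14.8 and 19.2 CPM in labelled *sma-9* and 14.6, 14.6 and 12.9 CPM in wild-type. All *sma-3* values exceeded all others, and *glna-2* rose against wild-type by 0.74 on the log2 scale (adjusted p = 0.00414, called in every alternative run). *glna-1*, also a glutaminase gene, rose by 0.65 (adjusted p = 0.0237), at 8.00, 11.99 and 11.91 CPM in *sma-3*, against 7.01, 5.05 and 7.03 CPM in wild-type. *alh-6*, which encodes the dehydrogenase that forms glutamate in proline breakdown, rose by 0.46 (adjusted p = 0.0211), with 182, 191 and 202 CPM in *sma-3*, 135, 161 and 141 CPM in labelled *sma-9* and 151, 116 and 152 CPM in wild-type. In labelled *sma-9*, limma called 0 of 14, against 6.88% of all tested genes, with 2 at an unadjusted p of at most 0.05 and 0 by voom. Directly between the mutants, *glna-2* (0.53, adjusted p = 0.0194) and *alh-6* (0.39, adjusted p = 0.0436) were higher in *sma-3*. The calls of *glna-1* and *alh-6* against wild-type were lost without *sma-3* replicate 2 (adjusted p = 0.0977 and 0.0716) or 3 (0.0942 and 0.0835), and that of *glna-1* without wild-type replicate 2 (0.0681). The *glna-1* call was also lost without a filter and with a replicate block. Counting every alternative run, these calls held in 11 of 16 for *glna-1* and 14 of 16 for *alh-6*. Between the mutants, *glna-2* was lost without *sma-3* replicate 2 (0.0758) or 3 (0.0836) or labelled *sma-9* replicate 2 (0.0687), and *alh-6* without any single library other than labelled *sma-9* replicate 2 (0.0786 to 0.148). There *alh-6* was also lost without a filter or an intensity trend, with equal totals and with a replicate block. The calls between the mutants held in 13 of 16 runs for *glna-2* and 7 of 16 for *alh-6*.

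**Figure D4:**
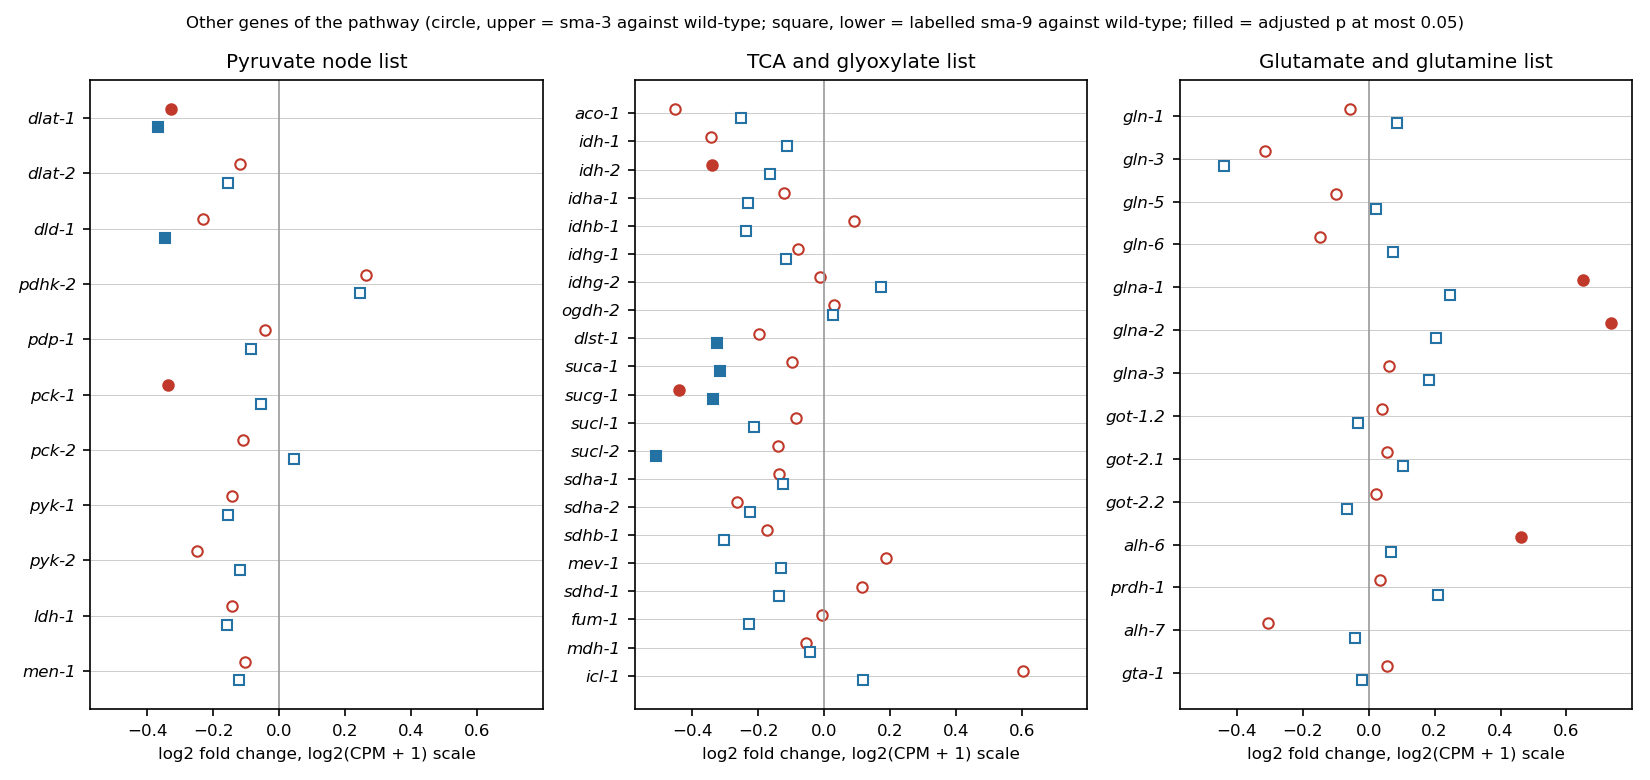
Log2 fold changes against wild-type of the 46 other tested pathway genes in 3 lists, circles (upper) for *sma-3* and squares (lower) for labelled *sma-9*, filled where called. Filled symbols lie left of 0 in the pyruvate and TCA lists, and right of 0 for *glna-1*, *glna-2* and *alh-6* in *sma-3*.

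Whole worms mix tissues, so fewer cells of a type and less RNA per cell cannot be told apart. In labelled *sma-9*, 4 of 4 matched intestinal marker genes fell (*ges-1*, *elt-2*, *ifb-2* and *act-5*, median log2 fold change −0.50), and their summed level was 1424 to 1738 CPM, against 2060 to 2414 CPM in wild-type. In that comparison 3.85% of all tested genes fell. Of 5 pharyngeal markers 1 was called, *myo-2* (−0.88, adjusted p = 0.0142), with all 5 below 0 and sums of 541 to 857 CPM in labelled *sma-9*, against 1012 to 1412 CPM in wild-type. In *sma-3*, where 12.2% of all tested genes fell, the hypodermal marker *dpy-7* fell (−1.26, adjusted p = 0.000838), and the intestinal sum was 2033 to 2127 CPM. The sum of the 5 hypodermal markers was 350 to 441 CPM in *sma-3*, against 593 to 731 CPM in wild-type, a difference carried by *dpy-7*, since the other 4 were not called and 3 of the 5 lay above 0 (median log2 fold change 0.17). Muscle, neuronal and germline markers were not called in either mutant, and no marker was at 0. *pdhb-1* was lower in both mutants and *gdh-1* was higher in labelled *sma-9*, where the intestinal and pharyngeal markers were lower. Their part in these results was not tested.

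Over the 9 libraries, the genes most like *mpc-1* in log2(CPM + 1) were C13F10.5, *nspc-20* and T02G5.7, with Pearson r of 0.991, 0.986 and 0.985. For *gdh-1* they were *mig-32* (0.991) and a pair of genes that share the name Y19D10A.4 (0.989 and 0.986), near 1 CPM and with a common name that leaves the division of reads between them uncertain. These values are descriptions across libraries that share genotype. Among the 10, *pdha-1* and *pdhb-1* had r of 0.834, *pdhb-1* and *ogdh-1* 0.852, *cts-1* and *mdh-2* 0.881 and *mpc-1* and *mpc-2* 0.276. The r of *mpc-1* with *gdh-1*, 0.858, follows from the order of genotypes for which both were chosen.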

How the data were processed

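Total RNA of whole late L2 worms was polyA selected and sequenced by the authors, who used STAR (version 2.5.1a) with the WS245 genome for mapping and gene counts. The authors then normalized these counts with edgeR. The deposited values are log2 CPM with a prior averaging 2 reads. The strand setting is not given in the sources used here. The prior was removed, which gave whole reads for 100% of values below 200 reads (tolerance 0.05), and 3 reads were taken as the floor, for counting error only.

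Genes reaching 1 CPM in 3 or more of the 9 libraries were tested on log2(CPM + 1) with limma 3.58.1 (R 4.3.3), fitting all 3 genotypes with an intensity trend. P-values are two-sided and Benjamini-Hochberg adjusted over 13105 genes within each comparison. The scripts were tested on simulated data. Tables and plots used Python 3.11.15, numpy 2.4.6 and matplotlib 3.10.9. Symbols, positions and exon lengths are from the WBcel235 annotation, which held 46821 of the listed genes. Positions refer to that annotation, not to the authors' own.

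The 10 genes, pathway lists and markers were chosen with earlier results of these data known. Named were the 10 genes, each list gene called in any comparison (at most 12 a list), *sma-3* and *sma-9*, and the 3 genes most correlated with *mpc-1* and with *gdh-1*. List genes named without a call, and single markers, were chosen after their values were seen. Alternatives covered pseudocounts, filters, normalizations, models, a stricter threshold and each library left out. ChIP-seq and phenotype data were not used here.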

Additional observations from a re-analysis of the deposited data

How the results depend on the processing

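Of 25 reversed signs, 8 came with quantile normalization, 5 without labelled *sma-9* replicate 3 and 3 with equal totals. With equal totals the median over all genes on the log2 scale was 0.11 in labelled *sma-9* and 0.0712 in *sma-3*, against 0.0045 and −0.01 in the analysis reported, and 35.9% of *sma-3* calls and 32% of labelled *sma-9* calls were then decreases, against 56.5% and 56%. In *sma-3* against wild-type, signs reversed with equal totals for *pyc-1* (0.0824) and *cts-1* (0.0457), and with quantile normalization for *pyc-1* (0.1505). In labelled *sma-9* against wild-type they reversed with equal totals for *aco-2* (0.0965), and with quantile normalization for *pdha-1* (0.0059), *cts-1* (0.0164), *aco-2* (0.1517), *ogdh-1* (0.0119) and *mdh-2* (0.0330). In *sma-3* against labelled *sma-9* quantile normalization reversed *cts-1* (−0.0349) and *aco-2* (−0.0479). None of these was called, and the cause was not tested.

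Leaving out each library in turn gave ranges across 0 for *pyc-1* (−0.1302 to 0.0772 in *sma-3*, −0.0613 to 0.1679 in labelled *sma-9*, −0.1798 to 0.0155 between the mutants), *cts-1* (−0.231 to 0.0032 in labelled *sma-9*, −0.0519 to 0.1824 between the mutants), *aco-2* (−0.0134 to 0.0512 in *sma-3*, −0.0866 to 0.0502 in labelled *sma-9*, −0.0278 to 0.109 between the mutants), *mdh-2* (−0.0255 to 0.0656 in *sma-3*) and *mpc-2* (−0.0768 to 0.1532 between the mutants). Counts of calls ranged, in *sma-3* against wild-type, from 1 to 3 of the 8 neighbours (1 without *sma-3* replicate 1 or 3 or wild-type replicate 1 or 2), 2 to 10 pathway genes and 1307 to 3279 of all genes. They ranged in labelled *sma-9* from 1 to 7 pathway genes and 431 to 1556 of all genes, the highest without wild-type replicate 3, and between the mutants from 0 to 5 and 932 to 2069.

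An adjusted p of at most 0.01 left 1 neighbour, 2 pathway genes and 1127 of 2823 genes in *sma-3*, 1 pathway gene and 371 of 901 genes in labelled *sma-9*, and 0 pathway genes and 824 of 2315 genes between the mutants. The neighbours called in *sma-3* came to 1 with quantile normalization. The 6 pathway genes of labelled *sma-9* came to 2 without a filter, with equal totals or with a library-number term, and to 1 with quantile normalization or only the 2 genotypes compared, which called 445 of all genes. Replicate numbers did not pair the libraries, since only 4 of 9 same-numbered pairs correlated above 0.1 (−0.629 to 0.399). The replicate block called 2081, 613 and 1563 genes in the 3 comparisons, 5, 1 and 3 pathway genes and 2, 1 and 0 neighbours. Tests for raw counts (edgeR and DESeq2) were planned but not run, because the deposited unit is log2, and voom was added after seeing the data. The 10 genes had 2834 reads or more in every library, so the 3 libraries a genotype, rather than depth, limit their precision.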
